A study of Mus musculus with 16 samples.

Results

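The genes described here are 7 neurotrophic factors and receptors, the ligands Bdnf, Ntf3 and Gdnf, the tyrosine kinase receptors Ntrk2 and Ntrk3, the neurotrophin receptor Ngfr and the sorting receptor Sort1. They were chosen by name, and their m6A peaks are all peaks on the gene's own strand that overlapped one of its GENCODE M39 exons in any of 8 peak lists. Of the 7 genes, 5 had a peak in at least 1 list. They held 154 of the 169564 peaks of the 8 lists, and these joined into 33 of 52774 regions.

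N6-methyladenosine (m6A) was mapped by MeRIP-seq, in which fragmented RNA is pulled down with an antibody against m6A (IP) and stretches enriched over the unselected RNA (input) are called as peaks. The tissue was peri-infarct cerebral cortex of male C57BL/6J mice aged 6 to 8 weeks. Sham mice had the surgery without the occluding thread. In the other 3 groups the middle cerebral artery was closed for 2 h with a nylon thread, and the tissue was taken after reperfusion for 0 h (MCAO/R-0 h), 6 h (MCAO/R-6 h) or 24 h (MCAO/R-24 h). Each group had 2 IP lists, whose labels give only a replicate number. The number of mice behind a library and any pooling are not stated in the labels, so the spread between replicates may be technical. No input library was analysed here, and a peak is therefore a listed enrichment and not a level of RNA. The lists hold no read counts, so depth is unknown, and a missing peak cannot be told apart from too little RNA. In such bulk tissue, fewer cells of a type and less RNA per cell cannot be told apart either.

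Neurotrophins are secreted as precursors, cut by proteases and bound by Trk receptors on neurons and glia. BDNF and NT-4 act through TrkB (Ntrk2), NT-3 (Ntf3) mainly through TrkC (Ntrk3), and all of them also bind p75NTR (Ngfr). Sortilin (Sort1) binds the precursors and sorts BDNF within the cell. GDNF belongs to another family and signals through RET with a GFRα co-receptor. Both Ntrk2 and Ntrk3 are also spliced into truncated receptors that lack the kinase domain and end in a 3' UTR of their own. A peak there lies in an exon of the short form and not of the full-length one. These stretches lie within the span of the full-length transcript, so the short form and unspliced RNA cannot be told apart by position. Bdnf transcripts start at alternative first exons and share 1 coding exon. m6A is written mostly in the sequence RRACH (A or G, A or G, A, C, then A, C or U), often near stop codons and in 3' UTRs.

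The lists held 18775 to 24078 peaks. Members had 17 and 11 peaks in Sham, 22 and 22 at 0 h of reperfusion, 25 and 18 at 6 h, and 22 and 17 at 24 h, with a mean of 19.2 ± 4.40 (SD, n = 8). Sham replicate 1 overlapped the range of the reperfusion lists. As a check of the tissue, 6 or 7 of 9 neuron markers had a peak in each list, 2 or 3 of 5 astrocyte markers, 2 to 4 of 5 microglia markers, 1 to 3 of 4 oligodendrocyte markers and 1 to 3 of 3 endothelium markers. Camk2a, Gfap and Aif1, which are defining markers of neurons, astrocytes and microglia, had no peak in any list.

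Recurrence was counted over the 8 lists, without a test. Of the 33 member regions, 7 were found in all 8 lists, where 8.97% of all regions were. Regions in 1 list made up 10 of the 33, against 52.6% of all regions. The 7 regions in all lists lay in 3 genes, 1 in Bdnf, 2 in Ntrk2 and 4 in Ntrk3. Of the member regions found in a group at all, both replicates held 8 of 13 in Sham, 13 of 23 at 0 h, 12 of 22 at 6 h and 10 of 19 at 24 h, while the share over all regions was 36.1% to 39.04%.

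**Figure D1:**
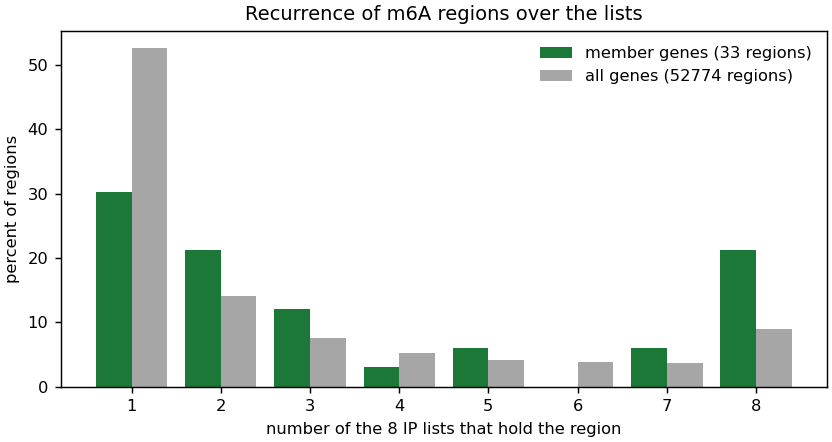
Percent of regions (y axis) by the number of the 8 IP lists that held them (x axis), for the 33 member regions (green) and all 52774 regions (grey). Of the member regions 21.2% were in all 8 lists, against 8.97% of all regions.

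Scores were compared as percentiles, the percent of peaks in the same list with a lower score, since the scale of the deposited score is not defined. Where a list held several peaks of a region, the highest percentile stands for the region in that list, and the others can be much lower. The median member peak stood at percentile 73.4. Each region found in all 8 lists was tested for a difference among the 4 groups by a one-sided exact permutation test over all 105 divisions of the lists into 4 pairs, with Benjamini-Hochberg adjustment over 4735 such regions. The smallest possible p is 0.00952. The test is weak for a change in 1 group alone, which however large it is can leave p at 0.143. An adjusted p of 0.05 would need 902 regions at the smallest p, and 67 had it. A p above 0.05 therefore does not show that the groups were alike.

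Among the ligands, Bdnf carried one of the higher-scoring regions of the lists. This region covered 825 nt of the shared coding exon and the start of the 3' UTR (chr2:109553736-109554560, GRCm39, plus strand), at positions -759 to 65 nt from the first base of the stop codon. All 18 annotated Bdnf transcripts hold its middle, so it cannot be assigned to one promoter. Its score percentile was 98.1 and 98.4 in Sham, 99.7 and 96.3 at 0 h, 98.4 and 86.2 at 6 h, and 97.6 and 91.3 at 24 h. The lowest value came from 6 h replicate 2, and the groups overlapped. The test did not separate them (exact permutation p = 0.610, adjusted p = 0.912).

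The stretch of this Bdnf region under a peak was shorter at MCAO/R-6 h than in the other lists. Peaks covered 725 and 750 nt of it in Sham, 750 and 500 nt at 0 h, 275 and 50 nt at 6 h, and 600 and 475 nt at 24 h. Both MCAO/R-6 h lists lay below the other 6, a comparison chosen after its values were seen and given without a test. What remained at 6 h in both replicates was the end next to the stop codon. All 8 lists shared 50 nt there (chr2:109554436-109554485), which encode the end of mature BDNF. Their sequence is shown because it is the only part of Bdnf called in every library, with its RRACH site in capitals.
Bdnf coding end: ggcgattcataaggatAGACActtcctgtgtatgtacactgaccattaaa
The A of this site lies at -41 nt from the stop codon.

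A second Bdnf region appeared only in the lists of MCAO/R-6 h. It lay in the 5' UTR of exon I (chr2:109505195-109505619), a first exon held by 1 of the 18 transcripts. Exon I belongs to a promoter known to respond to neuronal activity. The peaks were 350 nt long at percentile 81.2 in replicate 1 and 275 nt at percentile 69.4 in replicate 2. Neither Sham list held it, and by the rule used below it was gained at 6 h. The region overlaps exons of Gm45346, an antisense RNA on the minus strand, and the same 2 lists held minus-strand peaks over it at percentiles 80.9 and 76.0. Over all genes, 52.5% of 11435 peaks lying wholly in exons of an opposite-strand gene had such a partner in the same list, so Bdnf and its antisense RNA cannot be told apart here. Another Bdnf region, 141 to 215 nt past the stop codon, was in 24 h replicate 2 alone, at percentile 10.6. The site printed from exon I, with its RRACH match in capitals, was covered in both MCAO/R-6 h lists (chr2:109505334-109505362, plus strand).
Bdnf exon I: agcagggcaattGGACAgtcattggtaac

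**Figure D2:**
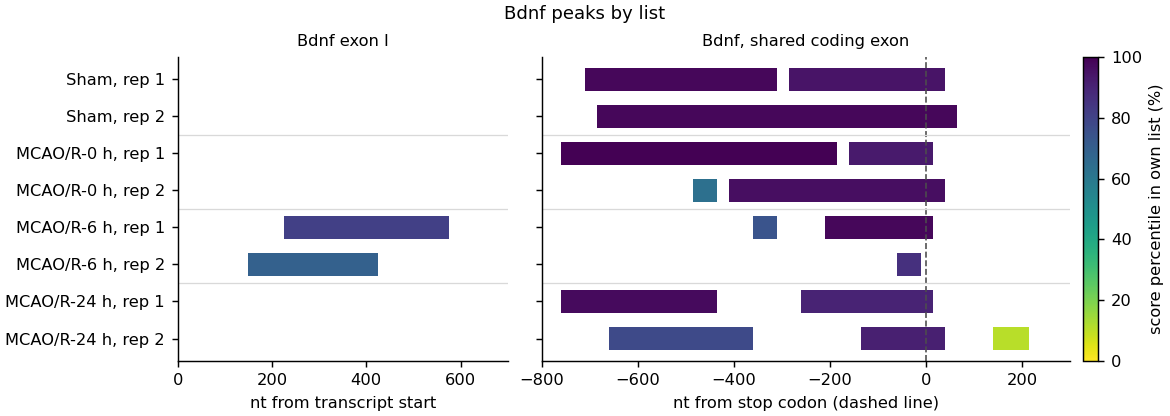
Bdnf peaks in the 8 lists (rows), by distance in nt from the start of the exon I transcript (left) and from the stop codon (right, dashed line), coloured by score percentile in the peak's own list. Exon I has bars in the 2 MCAO/R-6 h rows alone, and the coding exon has bars in every row, covering 275 and 50 nt of the region at MCAO/R-6 h.

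The other ligands had little or nothing. Ntf3, which encodes NT-3, had 1 coding region (chr6:126078875-126078974, minus strand) in 0 h replicate 2 at percentile 17.1 and in 24 h replicate 1 at percentile 12.8. No group held it in both lists. Gdnf had no peak in any of the 8 lists.

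Ntrk2, the TrkB receptor gene, carried the highest-scoring member region. Its peaks numbered 6 and 4 in Sham, 9 and 5 at 0 h, 10 and 5 at 6 h, and 8 and 4 at 24 h. In each group replicate 1 had more than replicate 2, and the groups overlapped. Of the 13 Ntrk2 regions, 7 lay in the 3' UTR of full-length Ntrk2 (821 codons), the form with the kinase. Another 2 lay in the 3' UTR shared by 2 truncated forms of 466 and 489 codons, and 2 in that of TrkB.T1, the truncated form of 476 codons.

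The highest-scoring region began 3 nt after the first base of the full-length stop codon and ran to 652 nt (chr13:59276168-59276817, plus strand). Its percentile was 99.8 and 99.0 in Sham, 99.2 and 99.6 at 0 h, 99.4 and 99.0 at 6 h, and 99.0 and 98.8 at 24 h. Every list thus placed it near the top, and the test did not separate the groups (exact permutation p = 0.505, adjusted p = 0.877). Among the regions found in all 8 lists, 98.2% had a lower mean percentile. The next region, 803 to 1227 nt from the stop codon (chr13:59276968-59277392), ranked lower and varied more. Its percentile was 97.7 and 83.1 in Sham, 95.9 and 88.7 at 0 h, 79.6 and 80.6 at 6 h, and 93.4 and 93.9 at 24 h. Both MCAO/R-6 h lists were below the others, but the test over the 4 groups did not pass (exact permutation p = 0.276, adjusted p = 0.810). A site of each region that all 8 lists covered is shown, with the RRACH match in capitals, at chr13:59276504-59276532 and chr13:59277224-59277252.
Ntrk2 first 3' UTR region: ttaactgtacatAGACAaaggccttaaca
Ntrk2 second 3' UTR region: ataatttcaggaAAACCcgagtccttgac

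Farther along the full-length 3' UTR, a region 2803 to 3077 nt from the stop codon (chr13:59278968-59279242) was in 7 lists and missing from Sham replicate 1. Its percentiles ranged from 70.3 to 90.8, the highest in Sham replicate 2. A region of 100 nt at 4653 to 4752 nt (chr13:59280818-59280917) was in both Sham lists at percentiles 79.9 and 77.5 and in 0 h replicate 1 at 71.6. It was in no list of MCAO/R-6 h or MCAO/R-24 h, and so was lost at both times.

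The 3' UTR shared by the truncated forms of 466 and 489 codons had peaks in reperfusion lists alone. Over their 3' UTR the lists held 0 and 0 peaks in Sham, 2 and 1 at 0 h, 3 and 2 at 6 h, and 4 and 0 at 24 h. Over the full-length end there were 5 and 4 in Sham, 6 and 3 at 0 h, 5 and 3 at 6 h, and 3 and 4 at 24 h. The main truncated region (chr13:59035506-59035830) lay 347 to 671 nt past the stop codon of the 489-codon form. Its percentile was 72.1 and 52.2 at 0 h, 78.9 and 74.4 at 6 h, and 62.6 in 24 h replicate 1. It was gained at 0 h and at 6 h, and at 24 h 1 of 2 lists held it.

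That region was poor in the m6A sequence. It held 1 RRACH match in 325 nt, where the median region of like length, within 20%, held 6 and 99.2% held at least 1. Only 3.29% of those regions had as few. The match lies at its edge and 1 list covered it (chr13:59035494-59035522).
Ntrk2 truncated 3' UTR: aaccacccagctGAACCtgccacagcctt
The TrkB.T1 3' UTR had a region of 325 nt with 0 RRACH matches, 452 to 776 nt from its stop codon. It was in 0 h replicate 1 at percentile 49.8 and in 6 h replicate 1 at percentile 94.0. A region 2077 to 2176 nt from the same stop codon held 4 matches in 100 nt and was in Sham replicate 1 at percentile 73.2 and in 0 h replicate 2 at percentile 75.8. No group held either TrkB.T1 region in both lists. The 6 Ntrk2 regions not described singly were 50 to 125 nt long, in 1 to 3 lists each, at percentiles from 0.0719 to 81.6.

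**Figure D3:**
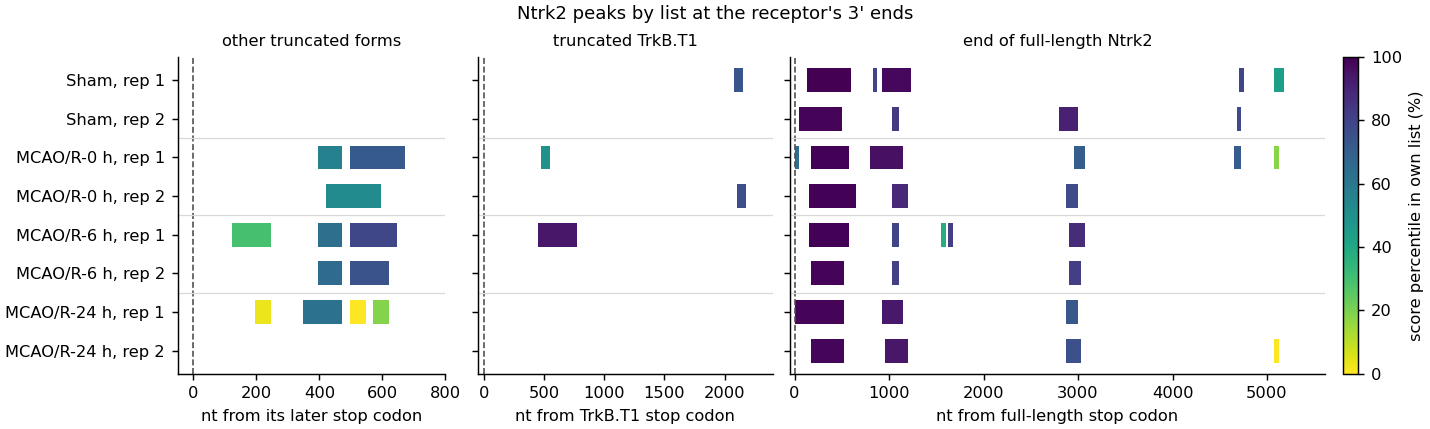
Ntrk2 peaks in the 8 lists (rows) at 3 transcript ends, by distance in nt from the stop codon of each (dashed line), coloured by score percentile in the peak's own list. Bars next to the full-length stop codon are in every row, while the Sham rows are empty at the end of the truncated forms of 466 and 489 codons (left). The other 2 regions, near a transcript start and another truncated stop codon, are not drawn.

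Ntrk3, the TrkC receptor gene, had the most peaks of any member. They numbered 8 and 6 in Sham, 11 and 13 at 0 h, 12 and 11 at 6 h, and 11 and 10 at 24 h. Both Sham lists were below all 6 reperfusion lists in this count, a difference given without a test. Peaks covered 1850 and 1425 exonic nt of Ntrk3 in Sham, and 2240 and 3239 nt at 0 h. At 6 h they covered 2214 and 2064 nt, and at 24 h 1625 and 1900 nt. By that measure Sham and MCAO/R-24 h overlapped. The Sham lists held 18775 and 20152 peaks in all, and the reperfusion lists 19072 to 24078. The part that the size of the lists has in the number of Ntrk3 peaks was not tested.

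On full-length Ntrk3, 8 regions lay at or past the stop codon. The joined region reaching over the stop codon, at -97 to 427 nt (chr7:77841882-77842406, minus strand), was in 7 lists and missing from Sham replicate 2. Its percentiles ranged from 87.2 to 96.8. Peaks over the stop codon itself were in Sham replicate 1 and 0 h replicate 1 alone. The other lists began past it, 24 h replicate 2 at 253 nt, and no base was covered by more than 6 lists. The next one, 578 to 1327 nt from the stop codon (chr7:77840982-77841731), had 20 peaks, 2 or 3 in each list. Its percentile was 82.3 and 81.8 in Sham, 87.5 and 89.5 at 0 h, 85.2 and 87.2 at 6 h, and 82.5 and 84.3 at 24 h. Both MCAO/R-0 h lists were above all others, and this region had the smallest p the test can give (exact permutation p = 0.00952). The adjusted p was 0.673, so it did not pass the correction over all regions. Of the 7 member regions tested it alone had an unadjusted p under 0.05, as did 6.67% of all regions tested, and with adjustment 0% of them passed. Its p was 0.0571 without Sham replicate 1, 0.0667 without Sham replicate 2 and 0.0762 without 0 h replicate 2, by the same exact permutation test.

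The region beyond it ran from 1503 to 2127 nt (chr7:77840182-77840806). Its percentile was 94.9 and 90.4 in Sham, 91.5 and 87.9 at 0 h, 88.2 and 74.1 at 6 h, and 90.3 and 95.6 at 24 h. The list of 6 h replicate 2 was the lowest, and the test did not separate the groups (exact permutation p = 0.190, adjusted p = 0.790). These last 2 regions were the only member regions with GGAC at a site that all 8 lists covered. Such a site of each is at chr7:77841506-77841534 and chr7:77840464-77840492, with the match in capitals.
Ntrk3 proximal region: agaaagggcagaGGACTccggggagagca
Ntrk3 distal region: agtctacagcctGGACAccctgaccagtg

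The truncated TrkC form (612 codons, without the kinase) had 3 regions in its own 3' end. One across its stop codon (chr7:77952248-77952447) was in every list, at percentile 67.1 and 71.9 in Sham, 62.5 and 71.0 at 0 h, 75.1 and 66.4 at 6 h, and 70.9 and 79.7 at 24 h. The groups overlapped (exact permutation p = 0.543, adjusted p = 0.896). Another at 757 to 1081 nt (chr7:77951298-77951622) was also in every list, at percentile 74.0 and 72.7 in Sham, 18.0 and 79.5 at 0 h, 65.0 and 71.1 at 6 h, and 44.5 and 82.2 at 24 h. The 2 lists of 0 h and of 24 h lay far apart (exact permutation p = 0.952, adjusted p = 0.985). Between them, a region at 532 to 731 nt (chr7:77951648-77951847) was in neither Sham list. It stood at percentile 62.1 and 30.4 at 0 h, 48.1 in 6 h replicate 1, and 44.7 and 73.8 at 24 h, and was gained at 0 h and 24 h. A site that all 8 lists covered in the region across this stop codon is at chr7:77952340-77952368. The region held 4 RRACH matches, and the printed bases include a further match in lower case.
Ntrk3 truncated end: aacaaaaacaaaAAACTccttttaagcct

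**Figure D4:**
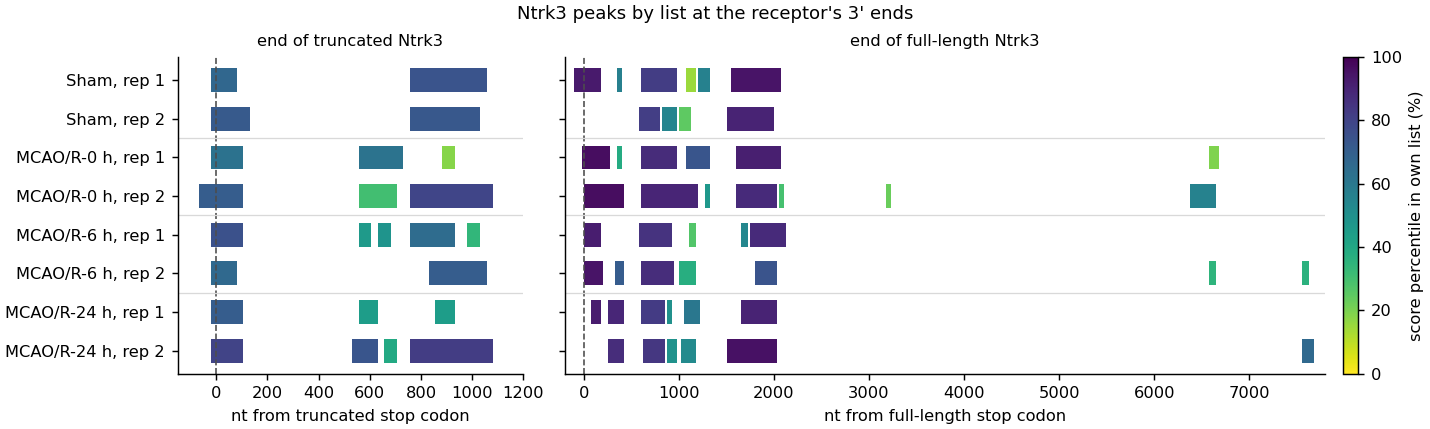
Ntrk3 peaks in the 8 lists (rows) at the truncated (left) and full-length (right) ends, by distance in nt from each stop codon (dashed line), coloured by score percentile in the peak's own list. At the truncated end the region at 532 to 731 nt has no bar in the Sham rows, and its neighbours have bars in every row. Regions from 14903 nt past the stop codon on and those at the 5' end are not drawn.

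Other Ntrk3 regions were found in fewer lists. A 5' region on upstream exons (chr7:78228370-78230911, 464 exonic nt) was in both lists of MCAO/R-0 h at percentiles 72.2 and 88.5 and both of MCAO/R-6 h at 82.0 and 90.6, and nowhere else, so it was gained at both times. The 4 lists shared 75 nt of it (chr7:78230837-78230911), which is all that 0 h replicate 1 held. The rest of the region overlaps the opposite-strand gene Gm9885, whose strand had peaks there in those 4 lists and in 24 h replicate 2, and for that stretch the strands cannot be told apart. None of these opposite-strand peaks overlapped the shared 75 nt. The whole region of 464 exonic nt held 2 RRACH matches, and 2.64% of regions of like length had as few. The match that most lists covered was in 3 lists and lay outside the shared 75 nt. A region 6378 to 6677 nt past the stop codon (chr7:77835632-77835931) was in both MCAO/R-0 h lists at percentiles 19.2 and 55.9 and in 6 h replicate 2 at 34.9. It was gained at 0 h. The 7 Ntrk3 regions not described singly were 50 to 265 nt long, in 1 to 3 lists each, at percentiles from 1.03 to 67.7.

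**Figure D5:**
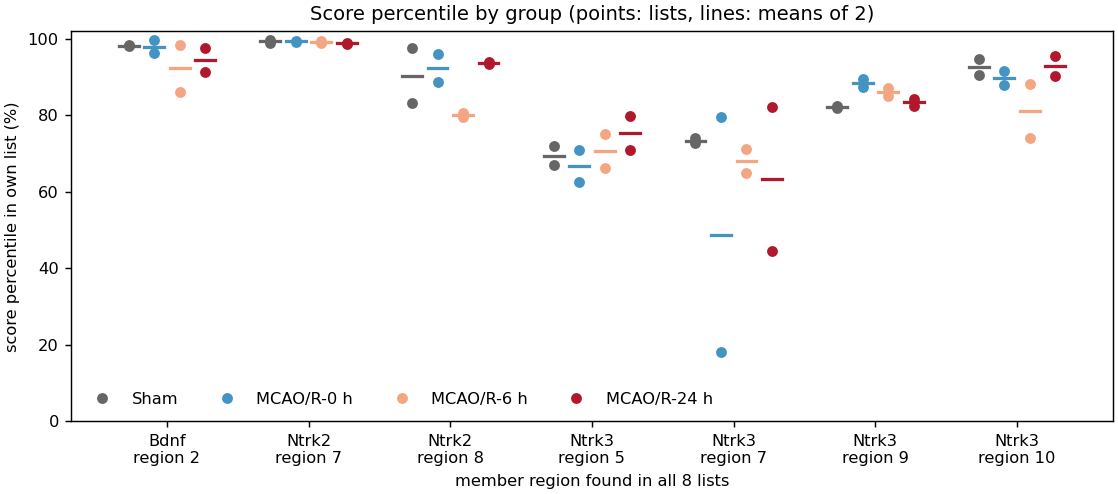
Score percentile in the list (y axis, percent) of the 7 member regions found in all 8 lists (x axis), with 1 point per list and a line at the mean of the 2 lists of a group. Regions are numbered along each gene, so that Ntrk2 regions 7 and 8 lie in the full-length 3' UTR, Ntrk3 regions 5 and 7 at the truncated end and regions 9 and 10 at the full-length end, and Ntrk2 region 7 stays between 98.8 and 99.8 while Ntrk3 region 7 spans 18.0 to 82.2.

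The remaining receptors were almost bare. Sort1 had 1 region of 100 nt, 227 to 326 nt past its stop codon (chr3:108264784-108264883, plus strand). It was in Sham replicate 1 at percentile 36.7 and in 0 h replicate 2 at percentile 45.9, and in no other list. Ngfr, which encodes p75NTR, had no peak in any list.

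A region was counted as gained at a time when both lists of that time and neither Sham list held it, and as lost in the reverse case. With 2 lists against 2 an exact test cannot go below p = 0.333, so none is given. At MCAO/R-0 h, 4 of 23 member regions were gained, where 3.83% of all regions were, and 0 were lost, where 1.87% were. At MCAO/R-6 h, 3 of 26 were gained against 4.94% of all regions, and 1 was lost against 2.02%. At MCAO/R-24 h, 1 of 22 was gained against 3.79%, and 1 was lost against 2.76%. The calls at 24 h were thus near the share of all regions. All 3 times were compared with the same 2 Sham lists. A region in 1 list can be neither gained nor lost. Of member regions 69.7% were in 2 or more lists, against 47.4% of all regions, and the part of this in the member calls was not tested. The regions gained at 0 h were 1 in Ntrk2 and 3 in Ntrk3, and those gained at 6 h were 1 each in Bdnf, Ntrk2 and Ntrk3. When only the higher-scoring 50% of each list was kept, the Ntrk3 regions at 532 to 731 nt of the truncated end and at 6378 to 6677 nt of the full-length end lost their calls. This left 2 gained at 0 h and 0 at 24 h, where 4.47% and 4.56% of all regions were then gained. Cell type markers were counted by the same rule. Neuron marker regions were gained in 0 and lost in 1 of 38 cases at 0 h, gained in 1 and lost in 3 of 42 at 6 h, and gained in 1 and lost in 4 of 40 at 24 h. Endothelium marker regions were gained in 2 of 13 cases at 0 h, 0 of 9 at 6 h and 1 of 10 at 24 h, and microglia marker regions in 1 of 18, 0 of 13 and 1 of 14. Oligodendrocyte marker regions were gained in 1 of 11 cases at 0 h, 1 of 11 at 6 h and 1 of 7 at 24 h, and astrocyte marker regions in 0 of 11, 0 of 12 and 1 of 9. Of the glial and endothelial marker regions, 1 was lost, a microglia one at 6 h. Their part in the member calls was not tested.

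By position, regions of the receptor genes lay mainly in 3' UTRs. Of the 23 member regions found in at least 2 lists, 19 (82.6%) were placed in a 3' UTR, 2 in coding sequence and 2 in a 5' UTR. Over all genes the shares were 35.3%, 56.1% and 6.38%. The 3' UTR regions were in Ntrk2, Ntrk3 and Sort1, and none of these 23 regions in Bdnf or Ntf3 was placed there. The upstream Ntrk3 region was placed in a 5' UTR by its middle. The 75 nt that its lists shared lay outside the transcript used. The middle of the region lay within 200 nt of a stop codon in 3 of the 23 (13.0%), against 20.2% of all regions. This leaves out long regions that reach a stop codon, such as the Bdnf coding region at -759 to 65 nt. The receptors' 3' UTRs are long, 5617 nt in full-length Ntrk2 and 16600 nt in full-length Ntrk3. RRACH matches on the transcript strand, overlapping ones included, numbered 17.7 per kb in member regions and 17.7 per kb in all regions. The member exons outside every peak held 13.9 per kb.

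Genes of the same pathway were counted from lists of other ligands, receptors, signalling proteins and proteases. Over all 21770 protein-coding genes, 18.8% had a peak in all 8 lists and 47.4% in none. Of 12 other ligands, 1 had a peak in all lists (Manf, whose annotated transcripts extend far past its coding ones) and 6 had none, namely Ntf5, which encodes NT-4, Nrtn, Pspn, Cntf, Lif and Ptn. Of 14 other receptors, 4 had a peak in all lists and 3 had none. Gfra3 and Nradd were among those without a peak. Over these receptors, 2 of 35 regions were gained and 3 lost at 0 h, 4 of 40 gained and 2 lost at 6 h, and 2 of 32 gained and 2 lost at 24 h, beside the shares of all regions given above. Gfra1, the GDNF co-receptor, had 1 region gained at 0 h, 2 at 6 h and 1 at 24 h, and 1 lost at 0 h. Il6st, the shared receptor subunit of CNTF and LIF, had 1 gained and 1 lost at each time. Sorcs1 gained 1 region at 6 h, and Sorcs3 lost 1 at each time.

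Of 37 adaptors and downstream signalling genes, 15 had a peak in all lists and 7 had none. Maged1, Bex3, Rap1a, Map2k1 and Map2k2 were among those without a peak. Braf, a kinase of the Ras pathway, had 1 region gained at 0 h, 2 at 6 h and 1 at 24 h, and 1 lost at 24 h. Over the list, 5 of 100 regions were gained and 0 lost at 0 h, 4 of 111 gained and 1 lost at 6 h, and 4 of 100 gained and 1 lost at 24 h. These shares were near those of all regions. Gained regions were in Shc2, Frs3, Plcg1, Braf and Pik3ca at 0 h, in Frs3, Gab1 and Braf at 6 h, and in Shc3, Frs3, Braf and Pik3ca at 24 h. Creb1, a transcription factor downstream of Trk signalling, lost 1 region at 6 h. Of 5 genes for cleavage of the precursors, Plg and Mmp9 had no peak, and Plat, which encodes tissue plasminogen activator, gained 1 region at 6 h.

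The regions most like each member's leading region were sought by Pearson's r of the score percentile over the 8 lists, as a description. For the Bdnf coding region they were in Kctd3 (r = 0.964), Slc2a1 (r = 0.959) and Gm57461 (r = 0.936). For the first Ntrk2 3' UTR region they were in Rnf145 (r = 0.929), Nsmce3 (r = 0.926) and Dab1 (r = 0.893). For the Ntrk3 region at 1503 to 2127 nt they were in Shisa7 (r = 0.966), Jtb (r = 0.965) and Tatdn2 (r = 0.923). These were the highest of 4735 regions over 8 points that share their libraries.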

How the data were processed

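Cortical IP libraries of 4 groups, 2 each, were analysed. The authors trimmed reads with Trim Galore, aligned them to GRCm39 with HISAT2 and dropped multi-mapped reads. Peak calling was by exomePeak2 (p-value cutoff 0.05, log2 fold change cutoff 0.5). Its version, any pooling and the use of strand are not given in the sources used here. The deposited lists give each peak's span, strand and a score on an undefined scale, used here only as a percentile within its list. They hold no counts, so depth and counting error are unknown. The paper reports fewer confident peaks per sample than these lists hold, and how the lists relate to those peaks is not given.

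Analyses ran in Python 3.11.15 (numpy 2.4.6), with figures by matplotlib 3.10.9. Each peak's exonic part was rebuilt from GENCODE M39 models on the same build, using basic protein-coding transcripts without readthrough and TAGENE models, and all exons where these gave none. Peaks sharing at least 1 exonic base on a strand were joined. A region was placed by its middle on the transcript with the longest coding sequence holding it. Distances at receptor ends are on the transcript without TAGENE models that holds most of the region. Counts for pathway genes used peaks assigned to the gene with most exonic overlap. Sequences were read from GRCm39, each site being the RRACH match that most lists covered, then GGAC before others, with 12 nt on each side. Gene assignment, the joining of peaks, the gained and lost calls and the permutation test were tested on simulated data. Placement on transcripts and the counting of sites were not.

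By rule, named regions were those in all 8 lists or gained or lost at any time. The 2 regions in 7 lists and the less recurrent ones of Bdnf, Ntf3, Sort1 and TrkB.T1 were described besides, after their values were seen. Named pathway genes were those with a gained or lost region or no peak. Some genes that this rule names are not reported here. Members and lists were chosen with earlier results of these data known. Alternatives left out each library, kept the higher-scoring 50% or 18775 peaks of each list, and changed the joining, exons, window, transcript, motif and replicate block.
Replicate numbers were not treated as pairs, since deviations of same-numbered libraries correlated at 0.0335 to 0.0982. The list of replicate 1 was, however, the smaller one in every group.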

Additional observations from a re-analysis of the deposited data

Results flagged for a closer look

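Opposite-strand peaks, which are outside the counts of member peaks and the gained and lost calls, overlapped 2 member regions and were in neither Sham list. Over the Bdnf exon I region they were in 2 lists, both at MCAO/R-6 h, and assigned to Gm45346. Over the upstream Ntrk3 region they were in 5 lists, those of the first 2 reperfusion times plus replicate 2 of MCAO/R-24 h, at percentiles from 38.4 to 82.9, and assigned to Gm9885, none of them over the 75 nt that the Ntrk3 peaks shared. Whether the reads came from the member gene or its partner was not tested.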

How the results depend on the processing

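With 2 lists per group and no read counts, presence calls carry no p, and peaks absent for lack of depth cannot be told from peaks absent from the RNA. Leaving out 1 library at a time gave 5 to 8 regions gained at MCAO/R-0 h and 0 to 1 lost, 4 to 10 gained at MCAO/R-6 h and 1 to 4 lost, and 2 to 7 gained at MCAO/R-24 h and 1 to 3 lost, since a group of 1 list passes the rule more easily. The share of all regions then ran from 7.78% to 26.2% for gains and 3.73% to 16.8% for losses at 0 h, from 8.95% to 25.6% and 4.36% to 16.8% at 6 h, and from 7.02% to 24.7% and 5.20% to 19.5% at 24 h. The 4 lost at 6 h and the 3 lost at 24 h came without Sham replicate 2. Keeping the higher-scoring 50% of each list gave a mean of 14.1 member peaks per list, 2 regions gained at 0 h and 0 at 24 h. Of all regions 4.47% were then gained at 0 h and 4.56% at 24 h. Member regions with their middle near a stop codon numbered 1 within 100 nt, 7 within 400 nt, and 5 when regions of any list counted. GGACT instead of RRACH gave 1.18 sites per kb, against 1.45 in all regions. The replicate block, which treats same-numbered libraries as paired, left 0 member regions with an adjusted p under 0.05, which says nothing about stability, since 3946 of 4735 regions would have to reach its smallest p of 0.0417 and 306 did (exact permutation). Under the alternatives 81 values of these results kept their call or stayed within 1.5 times or the replicate spread, and 18 moved. The 81 include the counts of adjusted score-rank calls, which stayed at 0. Those counts say little about stability, since the main test needed 902 regions at its smallest p and 67 had it.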
